A study of Mus musculus with 4 samples.

Results

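The regions described here are 1575 wide H3K27ac peaks of mouse salivary gland epithelial progenitor cells that lie far from any p63 peak. They were selected on 2 measured values: a width of 1000 to under 2000 bases, and no p63 peak within 50 kb, measured from edge to edge. Of the 183757 H3K27ac peaks in the list, 3011 had such a width, and the other 1436 of these had 1 or more of the 4130 p63 peaks within 50 kb. The latter serve as the comparison and are called the p63-near peaks. There were 4 libraries, all from primary cells of the salivary gland of 12-week-old adult mice wild type for p63: a ChIP with the p63 antibody 4A4, a ChIP with an antibody to H3K27ac, and 1 input without antibody for each. The data are 2 lists of peak positions on the mm9 genome, 1 for each ChIP against its input. Neither list has a replicate, and how deeply the libraries were sequenced is not known. Intervals below cover counting error only and treat peaks as independent. No test was run, since every value comes from the same 2 libraries that chose the regions. How a value would vary between cultures or mice is not known.

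Acetylation of lysine 27 on histone H3 is laid down by the coactivators p300 and CBP at active promoters and enhancers, on the nucleosomes that flank the open stretch where transcription factors sit. A wide peak is one where several acetylated nucleosomes in a row were enriched. p63, a member of the p53 family, marks the basal and progenitor cells of stratified and glandular epithelia and binds mostly at enhancers. No mm9 annotation or genome was used here. The regions are therefore given by position, without genes, promoter classes, motifs or sequences.

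Wide acetylated peaks were far from p63 less often than narrow ones. Of the peaks of 1000 to under 2000 bases, 52.3% (Wilson 95% interval 50.5 to 54.1%) had no p63 peak within 50 kb, against 72.2% of all H3K27ac peaks. The share was 76.9% for peaks of 150 to under 200 bases, 62.0% for 300 to under 500, 56.6% for 500 to under 1000 and 39.2% (35.1 to 43.6%) for the 502 peaks of 2000 bases or more. Within the range it was 52.8% under 1500 bases and 50.8% from 1500 bases, and these intervals overlap. Width and p63 distance define the regions, so these shares are a description of the rule.

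Within the range, the middle width was 1242 bases far from p63 (quartiles 1102.5 and 1487.5) and 1277 bases for p63-near peaks (1118.8 and 1507.2). Their nearest p63 peak was 173 kb away at the median (quartiles 96.3 and 326 kb). In 1157 (73.5%) it was more than 100 kb away, in 221 (14.0%) more than 500 kb and in 69 (4.38%) more than 1000 kb. Over all H3K27ac peaks, which include those within 50 kb of p63, these shares were 58.1%, 18.5% and 7.69%. The rule raises the shares of the regions against these. Of the 132695 H3K27ac peaks of any width without p63 within 50 kb, 106750 had it more than 100 kb away. In 33905 it was more than 500 kb away and in 14129 more than 1000 kb. Set against these counts, the regions lay that far from p63 less often at each distance. Among the p63-near peaks the median distance was 10042 bases, and 221 (15.4%) overlapped or touched a p63 peak.

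The thresholds cut through continuous ranges. The peaks just inside the distance limit were chr10:95025636-95026829, chr4:119212302-119213395 and chr16:94791254-94792842, at 50065, 50149 and 50161 bases from p63. Just outside lay chr11:77598580-77600388, chr3:89766214-89768006 and chr6:50404495-50406186, at 49874, 49772 and 49761 bases. At the narrow end, chr2:29483691-29484690, chr5:136437233-136438232 and chr8:89408248-89409247 were 1000 bases wide. The next narrower peaks far from p63, at chr6:128387640-128388638, chr15:74764732-74765730 and chr17:47146510-47147508, fell 1 base short of that. At the wide end, the first peaks left out were chr10:67701003-67703002 of 2000 bases, chr16:26369909-26371912 of 2004 bases and chr11:21138374-21140378 of 2005 bases.

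Peaks far from p63 stood in thinner acetylated surroundings than p63-near peaks of the same widths. The median number of bases in other H3K27ac peaks within 50 kb of the edges was 4805 (95% order-statistic interval of the median 4583 to 5043) far from p63 and 9575 (9085 to 10255) near p63. Over all H3K27ac peaks it was 2814. The number of other peaks in that window had a median of 17 (quartiles 11 and 25) far from p63 and 28 (19 and 38) near p63. The ranges overlapped widely: the values in bases ran from 0 to 35926 far from p63 and from 150 to 46390 near p63. In the plot of acetylated bases by neighbourhood, the 2 groups share most of their range and differ in where the bulk lies. How far p63 distance and acetylated density can be told apart was not tested.

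**Figure D1:**
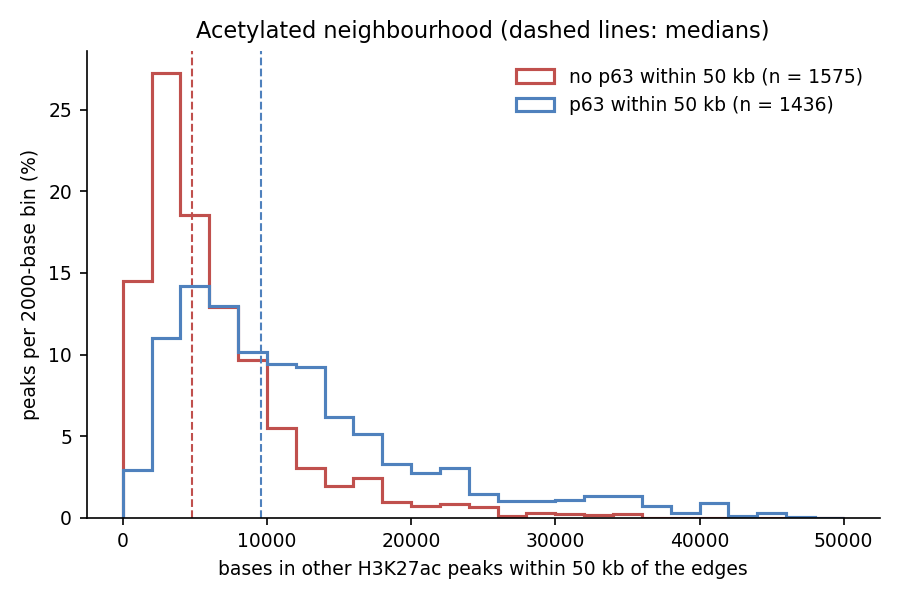
Bases in other H3K27ac peaks within 50 kb of the edges (x axis) against the percent of peaks in each bin of 2000 bases (y axis), for wide peaks far from p63 and p63-near peaks. Dashed lines mark the medians, 4805 and 9575 bases; the distributions overlap.

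Surroundings thinned with distance beyond 10 kb from p63. Wide peaks that overlapped or touched p63 had a median of 10057 bases in other H3K27ac peaks within 50 kb. The median was 10384 bases up to 1 kb from p63 and 11110 at over 1 to 10 kb, so it did not fall in these nearest classes. It was 9235 bases at over 10 to 25 kb, 7916 at over 25 to 50 kb, 5562 at over 50 to 100 kb, 5541 at over 100 to 200 kb, 4165 at over 200 to 500 kb and 3414 beyond that. Median width changed little over the same classes, from 1324 bases at overlapping peaks to 1218 bases in the farthest class.

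Close to the edge of the wide peak the 2 groups were more alike than farther out. Between 300 and 400 bases from the edge, other H3K27ac peaks covered 38.0% of positions beside peaks far from p63 and 46.6% beside p63-near peaks, a ratio of 1.22. Between 2000 and 5000 bases the values were 10.4 and 20.1%, a ratio of 1.93. Between 10000 and 20000 bases they were 5.66 and 12.9%, a ratio of 2.27, which was the highest of the 11 distance steps. In the outermost step, 20000 to 50000 bases, the ratio was 1.79. The first 100 bases were nearly empty in both groups (3.31 and 4.01%), since no 2 peaks of the list lie closer than 52 bases.

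**Figure D2:**
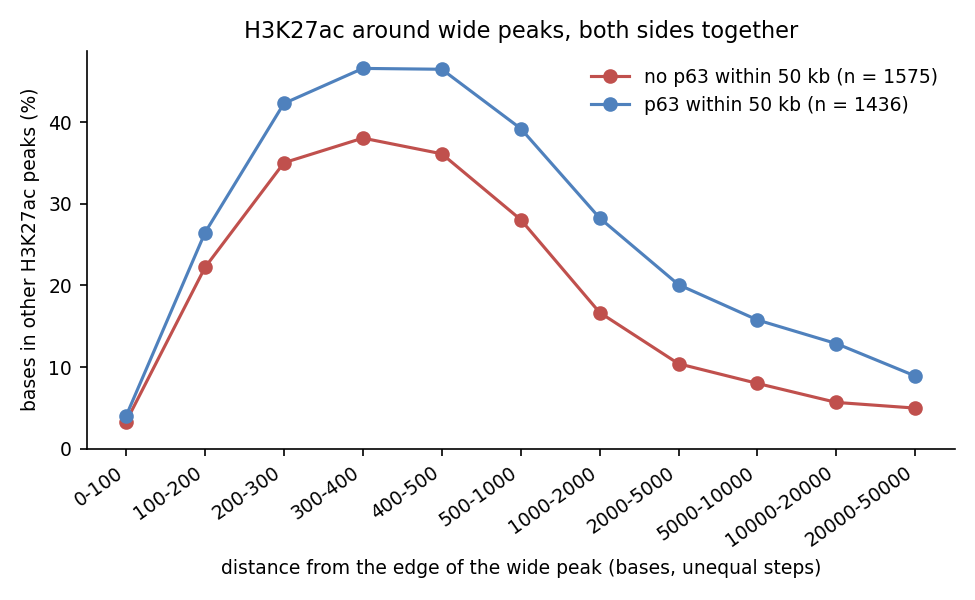
Percent of positions inside other H3K27ac peaks (y axis) by distance from the edge of the wide peak in bases (x axis, steps of unequal length, both sides together). Both curves peak at 300 to 400 bases, at 38.0% far from p63 and 46.6% near p63, and the gap between them widens in proportion out to 20000 bases.

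Most wide peaks far from p63 had a short valley at their side, meaning a gap between called H3K27ac peaks. The lists hold no signal, so how much acetylation lay inside the gaps is not known. In 1199 of 1575 (76.1%, Wilson 95% interval 74.0 to 78.2%) another H3K27ac peak began at most 500 bases away on at least 1 side, against 28.0% of all H3K27ac peaks and 85.1% (83.2 to 86.8%) of p63-near peaks. The valley was on exactly 1 side in 46.7% and on both sides in 29.4% (27.2 to 31.7%). Over all H3K27ac peaks these shares were 21.4% and 6.62%. Near p63 the corresponding shares were 44.4% and 40.7% (38.2 to 43.3%), so the groups were farther apart in valleys on both sides. The valleys themselves were of like size, with a median of 170 bases in both groups. They were counted per peak side, so a valley between 2 peaks of the same group is counted from both. Quartiles were 101 and 273 bases for the 1662 sides with a valley far from p63, and 103 and 274 bases for the 1807 near p63. Far from p63, 73 valleys lay between 2 of the regions. What lay across the valley was narrower far from p63, 345 bases at the median (quartiles 216 and 613) against 414 (233 and 778). It was itself 1000 bases or wider at 11.0% of these sides far from p63 and at 17.7% near p63. Counting valleys between wide peaks from both sides raises these shares.

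A wide peak far from p63 was more often the dominant acetylated element of its locality. Its own bases made up a median of 46.9% (quartiles 30.4 and 63.8%) of all acetylated bases within 10 kb of its edges, against 30.6% (18.7 and 45.7%) near p63. The median over all H3K27ac peaks was 30.1%. No other H3K27ac peak of 1000 bases or more lay within 50 kb for 952 peaks (60.4%, interval 58.0 to 62.8%). The share was 34.4% (32.0 to 36.9%) near p63 and 74.9% over all H3K27ac peaks, most of which are narrow. At the other extreme, 3 or more such wide neighbours were present for 11.2% far from p63, 30.5% near p63 and 4.98% of all H3K27ac peaks. When H3K27ac peaks at most 1000 bases apart were joined into domains, the domain around a wide peak spanned a median of 2505 bases with 3 peaks far from p63 and 3654 bases with 4 peaks near p63.

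Complete isolation was rare. Only 28 of the 1575 peaks (1.78%, interval 1.23 to 2.56%) had no other H3K27ac peak within 10 kb, against 17.2% of all H3K27ac peaks and 0.557% of p63-near peaks. Few acetylated bases within 50 kb did not always mean such isolation, as the 5 peaks with the fewest show. The peak chr3:110052771-110053915 (1145 bases) had none at all, its nearest H3K27ac neighbour being 59.8 kb away. The peak chrX:154480457-154481476 (1020 bases) had 1 neighbour of 172 bases, and chr12:79326798-79328445 (1648 bases) had 1 with 230 bases. The peaks chrX:137909665-137910687 and chr2:48669038-48670540 had 2 neighbours each, of 309 and 365 bases together, the nearest at 796 and 3173 bases. The peaks on chromosomes 3 and 12 and at chrX:154480457 were thus alone within 10 kb, and the others were not.

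At the opposite end, all 5 peaks with the most acetylated surroundings lay between chr8:87266149 and chr8:87306352. The first of them, chr8:87297647-87298819 (1173 bases), had 45 other H3K27ac peaks with 35926 bases within 50 kb, 10 of them wide. It lay in a joined domain of 30938 bases, which also held the peaks chr8:87290547-87291828, chr8:87304937-87306352 and chr8:87298904-87300616. The peak chr8:87266149-87267993 of 1845 bases lay beside this domain, in one of 8697 bases. The nearest p63 peaks were 85.0 to 124 kb from these 5 peaks. Dense acetylation thus occurred without a p63 peak within 50 kb, although it was the less frequent case.

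The H3K27ac list does not follow genome order, and wide peaks stand near its beginning. The list gives no value to say what ranks it. Among peaks of this width, those far from p63 stood earlier. Their median row was 3607 (95% interval of the median 3356 to 3865), against 5043.5 (4757 to 5344) for p63-near peaks. Among the first 5000 rows were 989 of the 1575 peaks far from p63 (62.8%, interval 60.4 to 65.1%) and 713 of the 1436 near p63 (49.7%, 47.1 to 52.2%), where the whole list gives 2.72%. Among the first 500 rows they were 147 (9.33%, 7.99 to 10.9%) and 83 (5.78%, 4.69 to 7.11%), where the whole list gives 0.272%. The distributions overlap over nearly their whole range, and the curves meet again towards row 20000.

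**Figure D3:**
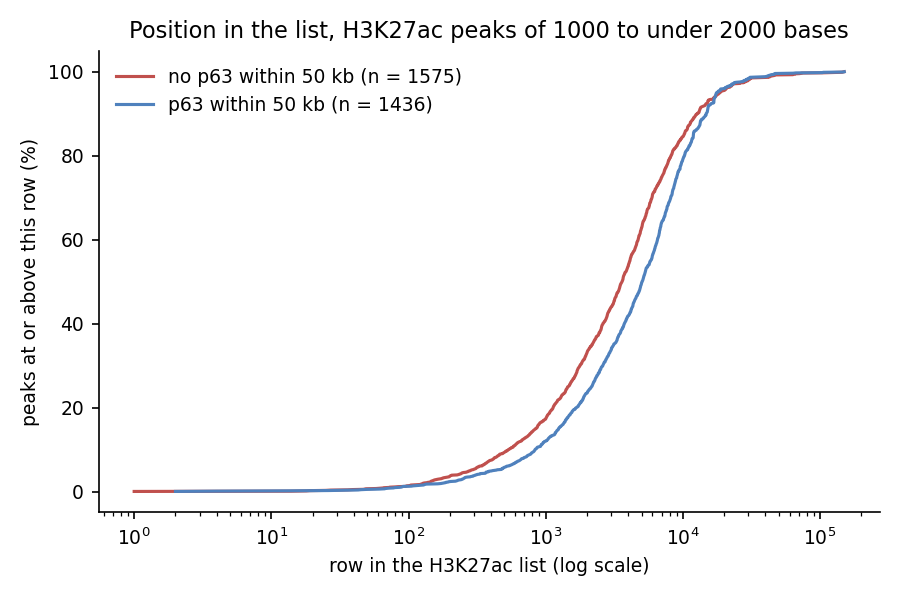
Percent of wide peaks at or above each row of the H3K27ac list (y axis) by row number (x axis, log scale), far from p63 and near p63. The curve of the 1575 peaks far from p63 lies above that of the 1436 p63-near peaks through rows 500 to 10000, with medians at rows 3607 and 5043.5.

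The median rows were also set side by side within bins of width and of neighbour number. In each of 6 width bins the median row of the peaks far from p63 was the lower: 4721 against 6196 from 1000 to under 1100 bases, 3359.5 against 5921 from 1200 to under 1300, and 2431 against 2899 from 1800 bases. Grouped by the number of other H3K27ac peaks within 10 kb, it was lower in 4 of 5 bins, for example 3440 against 4259 with 5 or 6 neighbours and 4597.5 against 6023.5 with 10 or more. The exception was the bin with 0 to 2 neighbours, with 3276 for 315 peaks far from p63 and 3012 for 115 near p63. Acetylated bases within 50 kb still differed inside these bins, with medians of 4643 far from p63 and 6373 near p63 at 5 or 6 neighbours, and their part in the difference of rows was not tested. By chromosome the median row was lower far from p63 on 18 of 20 chromosomes. The exceptions were chromosome 10 (4188 against 3225.5) and chromosome 14 (4000.5 against 3478). By p63 distance, the median row was 5958 at peaks that overlapped or touched p63, 7132 within 1000 bases, 4097.5 at over 25 to 50 kb and 3194 at over 100 to 200 kb, then 3902 in the farthest class.

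Seen along the list, the share of wide peaks that were far from p63 was lower towards row 20000. Beyond that row it was higher again, but wide peaks were few there. It was 63.9% (147 of 230, interval 57.5 to 69.8%) in the first 500 rows and 55.5% between rows 2000 and 5000. It then fell to 44.7% (41.2 to 48.2%) between rows 5000 and 10000 and 41.7% (37.0 to 46.5%) between rows 10000 and 20000. Between rows 20000 and 50000 it was 53.2% (43.9 to 62.2%) of 111 peaks, an interval that overlaps the one before. After row 50000 it was 66.7% (43.7 to 83.7%) of 18 wide peaks. Among wide peaks it was 58.8% between rows 500 and 1000, whereas peaks under 1000 bases went from 64.4% in the first 500 rows to 70.1% there and 70.8% between rows 1000 and 2000. They then took a course like that of the wide peaks at a higher level, with 56.8% between rows 10000 and 20000 and 76.1% after row 50000. The dip was therefore also present in narrower peaks. In the first 2000 rows the intervals of neighbouring row classes overlap within each width class. In the first 500 rows the 2 width classes had like shares (63.9 and 64.4%), and between rows 10000 and 20000 they were 15.1 percentage points apart.

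**Figure D4:**
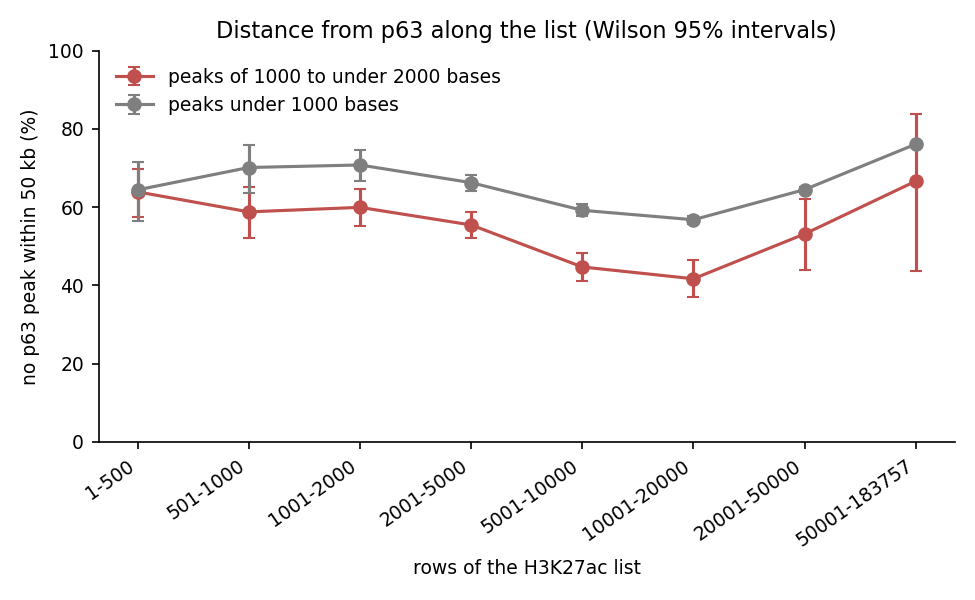
Percent of H3K27ac peaks with no p63 peak within 50 kb (y axis) by row class of the list (x axis, unequal classes), for peaks of 1000 to under 2000 bases and peaks under 1000 bases; bars are Wilson 95% intervals. Both lines dip between rows 10000 and 20000, to 41.7% and 56.8%.

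The first row of the whole list was one of these regions, chr19:3767345-3768835. This peak of 1491 bases lay 278 kb from p63, and its nearest H3K27ac neighbour was 1342 bases away. The next were chr3:65760908-65762111 (1204 bases, row 14), chr18:6490036-6491260 (1225 bases, row 18) and chr17:24305445-24307005 (1561 bases, row 19), at 111, 208 and 146 kb from p63. Row 25, chr1:57462866-57464011 (1146 bases), had no other H3K27ac peak within 10 kb, its nearest being 12.5 kb away, and neither had row 48, chr2:154616795-154618092 (1298 bases), whose nearest was 10.7 kb away. The remaining early peaks were chr11:120493645-120494905 in row 27, chr15:81415826-81417606 in row 36, chr2:72123528-72125213 in row 39 and chr1:180265978-180267903 in row 47. Of the 10 peaks, 6 had no other wide H3K27ac peak within 50 kb and 4 had 1. The earliest p63-near peaks were chr6:134516216-134517636 in row 2, chr4:141101993-141103068 in row 4 and chr14:79880315-79882195 in row 13, with p63 at 7.90, 15.2 and 45.3 kb.

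The widest peaks far from p63 did not share one kind of setting. The peaks chr1:58769832-58771823 and chr11:74536423-74538414 were both 1992 bases wide. The first had 34 other H3K27ac peaks within 50 kb and p63 at 54.6 kb, and the second had 15 and p63 at 897 kb. The peak chr9:102620156-102622142 (1987 bases) lay in a joined domain of 10601 bases with 3 other wide peaks within 50 kb. The peaks chr17:46691772-46693754 and chr19:45089417-45091399, both of 1983 bases, had 2644 and 14459 acetylated bases within 50 kb. Width near the upper limit thus went with sparse and with dense surroundings alike.

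Wide peaks far from p63 were less grouped among themselves than p63-near ones were. Another member lay within 50 kb for 550 of 1575 (34.9%, interval 32.6 to 37.3%), whereas 868 of the 1436 p63-near peaks (60.4%, 57.9 to 62.9%) had another p63-near peak in that distance. Within 10 kb the shares were 20.9% and 38.0%. Neighbours within 50 kb tend to share p63 peaks, so that grouping partly follows from the choice of regions. At most 500 bases apart were 73 neighbouring pairs far from p63, with a median valley of 172 bases. Another member lay that close for 137 of the 1575 (8.70%, interval 7.41 to 10.2%). Near p63, 237 of the 1436 (16.5%, 14.7 to 18.5%) had another p63-near peak that close, so such pairing was less frequent far from p63. Such pairs are 2 wide acetylated blocks on either side of a short gap.

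Windows of 100 kb with several members were few: 1055 windows held 1 midpoint, 161 held 2, 39 held 3, 11 held 4, 5 held 5 and 2 held 6. The window chr10:77000001-77100000 held 6 of them among 37 H3K27ac peaks that covered 19581 bases, the nearest p63 being 103 kb away. The window chr11:18900001-19000000 also held 6, spread over 48247 bases, beside 3 peaks of 2000 bases or more, the widest of 8480 bases. Its nearest p63 peak was 259 kb from a member. The window chr8:87200001-87300000, part of the dense locus above, held 5 among 47 H3K27ac peaks, and chr11:75900001-76000000 held 5 within 18949 bases. In chr14:22800001-22900000 the 5 were packed into 9984 bases, with 18 H3K27ac peaks in the window and p63 396 kb away. These clusters ranged from broad runs of many peaks to a tight row of wide peaks.

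The genome between neighbouring p63 peaks was divided into 4148 p63-free stretches. Of these, 2765 were longer than 100 kb, and by the rule a shorter stretch between p63 peaks cannot hold a region. At least 1 of the regions lay in 879 stretches, and 519 held exactly 1. The 37 stretches with 5 or more held 232 of the 1575. Long stretches were not where most of them lay: stretches of at least 1 Mb made up 66.7% of the length and held 43.4% of the regions. Of these 708 stretches, 363 held none. The share of all H3K27ac peaks in these long stretches was not counted, so the lower share is not shown to be particular to the regions. The stretch with the most, chr15:101846645-103171364, was 1.32 Mb long, with 13 wide peaks and 183 H3K27ac peaks per Mb, against 71.0 per Mb over all stretches. The stretch chr2:29382134-30206565 held 9 in 0.824 Mb, at 234 H3K27ac peaks per Mb. The next ones, with 8 each, were chr7:133677219-134752273, chr11:68892355-69692199, chr15:81511166-83168860 and chr17:34077456-35098070, at 124 to 218 H3K27ac peaks per Mb. The named stretches thus had more H3K27ac peaks per Mb than all stretches together. Choosing them by their wide H3K27ac peaks favours this. These stretches were chosen after their values were seen.

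The peaks farthest from p63 lay on chromosomes 7, X and 12. At the start of chromosome 7, chr7:4100404-4101849 (1446 bases) was 12.4 Mb from the nearest p63 peak, chr7:4740548-4741577 (1030 bases) 11.8 Mb and chr7:4966495-4967549 (1055 bases) 11.6 Mb. They had 15, 28 and 25 other H3K27ac peaks within 50 kb, so acetylation there was not sparse. The peaks chrX:106028290-106029639 and chr12:66066749-66067867 were 6.35 and 4.22 Mb from p63, with 8 and 11 other H3K27ac peaks within 50 kb. Whether p63 peaks could have been found in those stretches with these reads was not tested.

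By chromosome, the share of wide peaks far from p63 ran from 42.7% on chromosome 12 (50 of 117, interval 34.1 to 51.8%) to 64.6% on chromosome 10 (95 of 147, 56.6 to 71.9%) among the 19 autosomes. Chromosome X lay above them, with 28 of 33 (84.8%, interval 69.1 to 93.3%) against 51.9% (50.2 to 53.7%) on the autosomes together. The X interval overlaps those of chromosomes 10 and 16. All H3K27ac peaks showed the same order, with 90.9% far from p63 on X and 71.7% on the autosomes, and X carried 51 p63 peaks. Per 1000 H3K27ac peaks, X held 5.61 of the regions and the autosomes from 6.42 (chromosome 12) to 11.6 (chromosome 17). X was thus poor in wide peaks of either kind, and most of the few it had were far from p63.

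**Figure D5:**
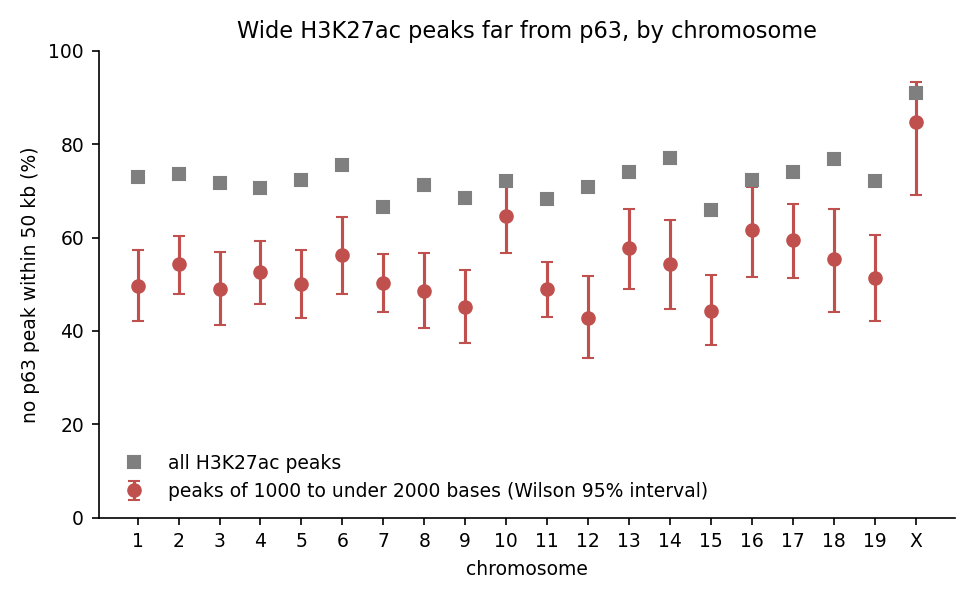
Percent of H3K27ac peaks with no p63 peak within 50 kb (y axis) on each chromosome (x axis). Circles are peaks of 1000 to under 2000 bases with Wilson 95% intervals, and squares are all H3K27ac peaks; X stands at 84.8% and 90.9%.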

How the data were processed

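ChIP-seq peak lists of p63 and H3K27ac were analysed, 1 ChIP library against 1 input each, in 4 groups of 1 library. The submitters' processing notes name Bowtie 1.1.1, MACS2 2.1.0 and the build mm9. Settings and the peak threshold: not given in the sources used here. Each deposited list holds chromosome, start and end only, with no score. Starts are printed counted from 1. A distance of 0 includes peaks that touch. Counts of H3K27ac bases within 50 kb stop at the window's edge. Shares carry Wilson intervals and medians binomial order-statistic intervals. Distances, neighbourhoods and runs were tested on simulated data against direct enumeration.

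The regions were chosen with earlier results of these data known. Peaks named were the 10 earliest, 5 widest, 5 farthest from p63, 5 with the most and 5 with the fewest acetylated bases, 3 on each side of the limits, 5 windows and 3 p63-near peaks. The planned analyses of start sites, gene lists, base composition and motifs were not run, because no mm9 genome or annotation was used. Python 3.11.15, numpy 2.4.6, pandas 2.3.3 and scipy 1.17.1 were used.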

Additional observations from a re-analysis of the deposited data

How the results depend on the processing

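The order of peaks far from p63 and p63-near peaks in neighbourhood, valleys, list position and grouping, and that of X and autosomes, was the same under every alternative run. The larger group changed only at 100 kb, where 1157 regions were far from p63 and 1854 near it. With wider p63 peaks the counts were 2055 and 956, so the regions far from p63 stayed the larger group. Of 81 values recomputed, 51 stayed within the interval of the first value (for the number of regions, within 1.5 times) and 30 moved beyond it. The share far from p63 moved to 64.4% at 25 kb, 38.4% at 100 kb and 68.2% with the 2065 wider p63 peaks. The number of regions fell to 382 from 1500 bases. The median of acetylated bases moved to 5301 at 25 kb, 4548 at 100 kb, 4546 and 5659 for the narrower and wider part of the range, 5380 with the wider p63 peaks, 3290 in the first 91878 rows, 2949.5 in the rows before the text-ordered run (chosen after seeing the data), 4560 with peaks joined at 100 bases, and 2696 and 1467 in windows of 25 and 10 kb. The share with a short valley moved to 79.1% from 1500 bases, 67.8% in the first 91878 rows, 66.5% in the rows before that run, 66.4% with joined peaks, and 51.2% and 82.5% for valleys of 200 and 1000 bases. The median row moved to 4017 and 2503.5 for the narrower and wider part and 4296 with joined peaks. The grouped share moved to 27.5% and 17.5% for the same parts, 40.2% with the wider p63 peaks and 20.9% at 10 kb. The X share moved to 93.9% (interval 80.4 to 98.3%) at 25 kb and with the wider p63 peaks. From 1500 bases it moved to 100% (67.6 to 100%), on few X peaks. These intervals overlap the first one, 69.1 to 93.3%. Leaving out the 16 p63 peaks of dense windows without H3K27ac changed none of the 7 results. Start sites, gene lists, base composition and motifs have no values. No paired analysis was possible because there is 1 library a group. With unknown depth, a region without a p63 peak nearby is not shown to lack p63 binding.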

Other observations

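The order of the rows holds more than a rank. Read as text with tabs ignored, the H3K27ac list falls into 1908 unbroken runs in ascending order of the line. The last run holds 78015 rows (42.5% of the list, from row 105743), and the run around the middle row holds 27939, from row 73438 to row 101376. Inside such a run the row number follows the text of chromosome and position, so no rank was read from it. The first 20000 rows hold 1525 of the runs and 1504 of the 1575 regions (95.5%), so the positions given for the regions rest mostly on short runs. By run number the median was 693 far from p63 and 838.5 near p63.

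A cut at the middle row, 91878, falls inside the run of 27939 rows. That run holds 991 H3K27ac peaks on chromosome X, and 0 of them come before the cut. Chromosome X made up 2.72% of the whole list and 1.60% of the rows up to the cut, and 1471 of the 73437 rows before the run.

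There were 12 wide peaks far from p63 after row 50000 (0.762%, interval 0.436 to 1.33%), against a median row of 3607. Near p63 there were 6 (0.418%, 0.192 to 0.909%), and of all H3K27ac peaks 72.8% stood there. The last run held 2 p63-near peaks and 4 of the 12: chr15:102501798-102503199, chr2:120230025-120231215, chr2:156272500-156273789 and chr2:84466654-84467771, of 1402, 1191, 1290 and 1118 bases. In 11 of the 12 another H3K27ac peak lay within 500 bases, against 76.1% of all 1575 regions and 28.0% of all H3K27ac peaks. The median of acetylated bases within 50 kb was 11138 for the 12 and 4805 for the 1575. These late peaks were chosen after their values were seen.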
